A study of Mus musculus with 12 samples.

Results

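The SREBP sterol and fatty acid synthesis module is the set of genes through which mammalian cells make cholesterol and long-chain unsaturated fatty acids under the control of the sterol regulatory element-binding proteins. Its 33 genes were named from the known pathway and matched by gene symbol, 1 row per Ensembl identifier. All 33 were found among the 23764 identifiers of the table, and all 33 passed the filter on low counts that left 14715 genes for testing. The sterol branch held 24 genes: the sensors and transcription factors, the enzymes from acetyl-CoA to cholesterol, and the sterol carrier Stard4. The fatty acid branch held 9 genes: Acly, Acaca, Fasn, Scd2, Elovl5, Elovl6, Fads1, Fads2 and Acsl3.

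The module was measured by RNA sequencing in RAW264.7, an immortalized monocyte/macrophage line of Balb/c origin. Every culture received RANKL, the cytokine that drives macrophages towards bone-resorbing osteoclasts, at 100 ug/ml according to the labels. Vehicle cells received MEM-alpha medium and treated cells received supernatant from cultures of Lactobacillus reuteri, a gut bacterium, and RNA was taken after 1, 3 and 5 days, which gave 6 groups of 2 libraries. The labels do not say whether the libraries of a group came from separate cultures, so p-values measure only the spread between libraries, which may be technical, and no group without RANKL was analysed here.

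As background, SREBP precursors sit in the membrane of the endoplasmic reticulum bound to the escort protein SCAP. When membrane sterol is low, SCAP carries them to the Golgi, where proteases free the part that enters the nucleus; when sterol is high, INSIG proteins hold SCAP back. SREBP2 acts mainly on genes of cholesterol synthesis and uptake and SREBP1 mainly on genes of fatty acid synthesis, and in osteoclasts the mevalonate pathway is known as the target of nitrogen-containing bisphosphonates, which block farnesyl diphosphate synthase.

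Read totals were 8071160 to 16781080 per library. Replicate 2 of days 3 and 5 stood apart in both arms: these 4 libraries had 38.1 to 48.8% of reads in nuclear protein-coding genes and 25.7 to 30.6% in mitochondrial genes, against 85.2 to 87.6% and 3.64 to 5.97% in the other 8. They are called low-mRNA libraries below, and every count of changed genes comes from the other 8 unless 12 libraries are named. In those 8 libraries days 3 and 5 have 1 library per arm, so the spread comes from the day 1 pairs and the lone libraries are assumed to vary alike. Of 8 macrophage markers 7 were in the table, and their summed normalized count was 81925 to 331152 in the 8 libraries and 23403 to 146015 in the low-mRNA libraries. Col1a1, Epcam and Pecam1, markers of other cell types, summed to between 0 and 16.9 normalized counts.

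Promoter sequence was read from RefSeq (GRCm38.p6) for 27 of the 33 genes, which had 35 listed promoters, each taken as the 250 bases before the start. Scd2, Stard4, Sqle, Fdps, Fads1 and Fdft1 had no entry. The following 4 are shown because they cover the transcription factor Srebf2, the sensor Insig1, the HMG-CoA synthase Hmgcs1 and the fatty acid synthase. Capitals mark TCACNCCA, an SREBP-binding element of the classic kind, and CCAAT, the NF-Y element, each on either strand. They lie at chr15:82147019-82147268 on the plus strand for Srebf2, chr5:28071162-28071411 on the plus strand for Insig1, chr13:119690101-119690350 on the plus strand for Hmgcs1 and chr11:120824548-120824797 on the minus strand for Fasn.
Srebf2: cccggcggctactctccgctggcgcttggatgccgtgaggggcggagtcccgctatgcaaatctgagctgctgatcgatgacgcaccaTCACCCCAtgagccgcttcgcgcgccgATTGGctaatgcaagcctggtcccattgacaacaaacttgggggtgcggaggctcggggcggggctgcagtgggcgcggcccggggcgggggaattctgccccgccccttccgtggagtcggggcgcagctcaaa
Insig1: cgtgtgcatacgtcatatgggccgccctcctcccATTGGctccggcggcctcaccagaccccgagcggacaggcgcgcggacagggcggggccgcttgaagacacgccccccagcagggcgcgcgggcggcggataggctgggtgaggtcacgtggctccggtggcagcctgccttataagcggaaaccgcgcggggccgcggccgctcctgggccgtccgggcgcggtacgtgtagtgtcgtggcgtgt
Hmgcs1: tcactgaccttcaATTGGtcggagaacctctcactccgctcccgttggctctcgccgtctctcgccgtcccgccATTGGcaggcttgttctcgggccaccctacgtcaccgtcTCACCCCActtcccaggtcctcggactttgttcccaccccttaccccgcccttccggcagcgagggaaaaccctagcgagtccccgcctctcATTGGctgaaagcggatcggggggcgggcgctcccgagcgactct
Fasn: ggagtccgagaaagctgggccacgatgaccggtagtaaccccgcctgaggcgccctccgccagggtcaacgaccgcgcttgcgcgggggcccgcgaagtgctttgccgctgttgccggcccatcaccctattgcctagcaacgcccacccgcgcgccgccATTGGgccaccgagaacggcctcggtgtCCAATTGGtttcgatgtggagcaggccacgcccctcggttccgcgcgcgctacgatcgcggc

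In Srebf2 the TCACNCCA match lies 162 to 155 bases before the start and a CCAAT match 135 to 131 bases before it. In Hmgcs1 the TCACNCCA match lies 137 to 130 bases before the start, with 3 CCAAT matches around it, and in Fasn a CCAAT match and its reverse complement share 2 bases between 62 and 55 bases before the start. Searched on both strands, TCACNCCA was found in 3 of the 35 promoters (8.57%; Hmgcs1, Msmo1 and Srebf2), against 3.67% of all 32851 promoters of that length. CCAAT was found in 22 of 35 (62.9%) against 33.8% of all promoters, and GGGCGG, the core of an Sp1 element, in 25 of 35 (71.4%) against 32.7%. By branch, CCAAT was in 19 of 28 sterol promoters (67.9%) and 3 of 7 fatty acid promoters (42.9%), and GGGCGG in 22 of 28 (78.6%) and 3 of 7 (42.9%). TCACNCCA and CCAAT can share the letters CCA, which they do not do in Srebf2 or Hmgcs1, and a match describes these windows only.

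Per kilobase of exon, the module was led by Scd2 and Fads1. In vehicle cells at day 1, Scd2, a stearoyl-CoA desaturase (ENSMUSG00000025203), stood at 2906 normalized counts per kilobase and Fads1, the delta-5 desaturase, at 1017, while the median over the 33 genes was 251. The lowest was Tm7sf2, a sterol delta-14 reductase, at 23.2 per kilobase. Among the regulators, Srebf2 had 406 per kilobase, Srebf1 239 and Insig1 388, so all 3 transcripts were present from the first day. For single genes, 18.3% of the exon bases of Fdft1 overlap the oppositely oriented Ctsb, whose mean normalized count was 29100 against 681 for Fdft1, and 13.2% of Scap overlap a gene on the other strand. Whether reads were counted by strand is not given in the sources used here, so the values of these genes are uncertain. Tm7sf2 is uncertain too, since 12.1% of its exon bases overlap Vps51 on the same strand.

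**Figure D1:**
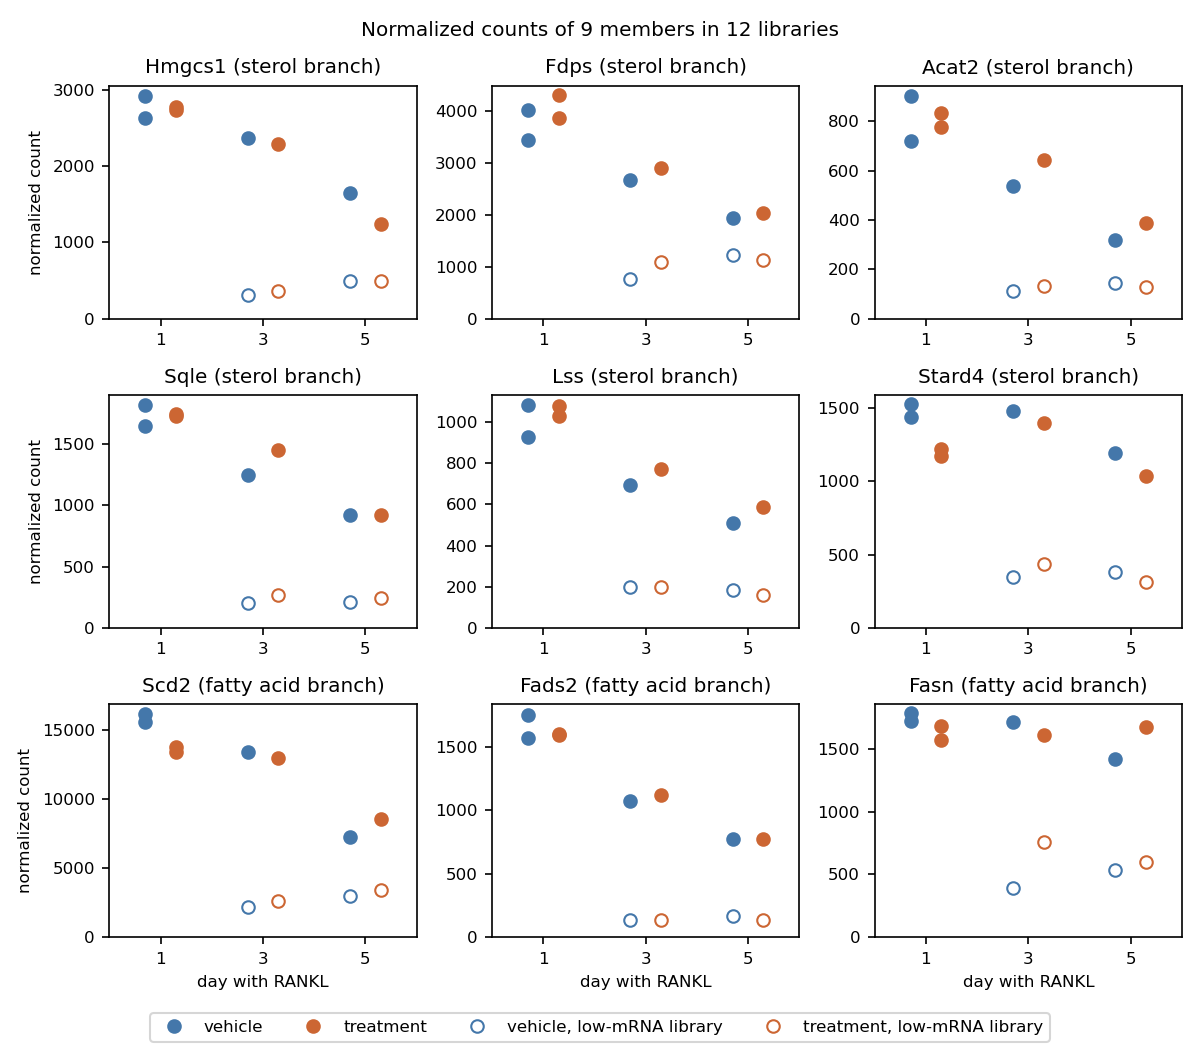
Normalized count (linear axis from 0) of 9 genes against the day with RANKL, 1 point per library, blue for vehicle, orange for treatment and open for the low-mRNA libraries. Scd2 falls from 16158 and 15599 in vehicle at day 1 to 7269 at day 5, the open points lie under the filled ones of the same day in every panel, and Stard4 is the panel in which both treated libraries of day 1 lie under both vehicle libraries by a margin that passed the test.

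The treatment comparison asks what the bacterial supernatant changed beyond RANKL alone. At day 1 it left the module close to the vehicle level: 1 of 33 genes was lower and none was higher by limma at a Benjamini-Hochberg adjusted p under 0.05, where 5.74% of the 14715 genes tested were called in either direction (3.12% higher and 2.62% lower). The gene was Stard4 (ENSMUSG00000024378), which carries cholesterol between membranes inside the cell. Its normalized counts were 1526 and 1437 in vehicle and 1170.4 and 1219.9 in treated cells, so the groups did not overlap. The log2 difference was -0.31, with an SE of 0.053 and a limma adjusted p of 0.0414. The call was lost without the filter on low counts, where 1.07% of genes were called, and under quantile normalization, where 4.45% were. Without any 1 of the 4 day 1 libraries, and over 12 libraries with no other term, no gene of the 14715 was called at all, so those fits give no reading of Stard4. In bulk RNA, fewer cells of a type and less RNA per cell cannot be told apart. Of 7 osteoclast markers tested, Ctsk and Atp6v0d2 rose with treatment at day 1 and none fell, with sums over the list of 3833 and 3893 normalized counts in vehicle and 3988 and 3743 in treated cells, and their part in the result was not tested. Of 7 macrophage markers none was called by limma (3 had an unadjusted p under 0.05, beside 3661 of the 14715 genes). Their sums were 134291 and 122994 in vehicle and 169440.1 and 163145 in treated cells, which did not overlap. By gene, 3 of the 7 were higher in treated cells and 4 lower, with a median log2 difference of -0.012 and a highest of 0.62. The part of these markers was not tested either. At later days Stard4 did not pass: it had 1476 in vehicle and 1400.0 in treated cells at day 3, and 1192 and 1038 at day 5.

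None of the 5 sensors and transcription factors passed the test at day 1. Srebf2, the transcription factor of the cholesterol genes, had 2929 and 2903 in vehicle and 2969 and 2806 in treated cells, a log2 difference of -0.015 (SE 0.047). Srebf1, the factor of the fatty acid genes, had 1338 and 1357 in vehicle against 1269 and 1232 in treated cells, which put treated cells at -0.11 in log2 (limma adjusted p = 0.222, SE 0.045). The treated Srebf1 libraries lay under both vehicle libraries, and those of Srebf2 overlapped them. Insig1, itself a target of SREBP, had 1283 and 1115 in vehicle and 1274 and 1243 in treated cells, with overlapping groups.

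Among the enzymes at day 1, the branch medians lay close to 0 on opposite sides. Hmgcs1, which makes HMG-CoA, had 2921 and 2635 in vehicle and 2740.4 and 2773 in treated cells, inside the vehicle range. Sqle, the squalene epoxidase, had 1820.0 and 1646 against 1729 and 1745, also inside it. Scd2 had 16158 and 15599 in vehicle and 13759 and 13432 in treated cells, without overlap, and its log2 difference of -0.22 (SE 0.051) missed the threshold at a limma adjusted p of 0.0721. Fasn, the fatty acid synthase, had 1787 and 1725 against 1683 and 1569, again lower in both treated libraries but not past the test (limma adjusted p = 0.273). Elovl6, which lengthens palmitate, had a log2 difference of -0.30 and Acsl3, an acyl-CoA synthetase of lipid droplets, one of 0.21, neither past the test. The median log2 difference was 0.046 over the sterol branch, -0.053 over the fatty acid branch and -0.04 over all genes tested, with 15 of 24 sterol genes, 2 of 9 fatty acid genes and 41.6% of all genes above 0.

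At day 3 none of the 33 genes passed the limma test, and 0.116% of all genes did. Limma-voom on the reads also called none of the 33. The log2 differences ran from -0.16 in Scap to 0.26 in Acat2, the cytosolic acetoacetyl-CoA thiolase, with a median SE of 0.0984. The 2 libraries without low mRNA gave 536 for Acat2 in vehicle and 643 in treated cells. Hmgcs1 had 2374 in vehicle and 2289 in treated cells, and Scd2 had 13399.8 and 12944. In the low-mRNA pair of day 3 the treated library was higher for 30 of 33 genes, with 312 and 359 for Hmgcs1 and 392 and 756 for Fasn. That shift was shared with the transcriptome: 77.6% of all genes were higher in that treated library, with a median log2 difference of 0.46 against 0.47 for the sterol branch and 0.28 for the fatty acid branch. The share of nuclear protein-coding reads differed between the 2 libraries of that pair, at 38.1% in vehicle and 47.0% in treated cells, and its part in the shift was not tested.

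At day 5 no member passed by limma either, while 5.81% of all genes were called (2.54% higher and 3.27% lower). Limma-voom on the reads called 5 (Fads1, Hmgcs1, Sc5d, Scd2 and Srebf2) and 13.3% of all genes. In the low-mRNA pair of day 5, 68.2% of all genes were higher in the treated library, with a median log2 difference of 0.23, and the values of that pair are to be read against this shift. Hmgcs1 had 1647 in vehicle and 1239 in treated cells, so treated cells differed by -0.41 in log2 (limma adjusted p = 0.0597, SE 0.086). The low-mRNA pair had 490.3 and 491, a log2 difference of 0.001, which is under the median shift of that pair. Srebf2 had 2191 in vehicle and 1785 in treated cells (limma adjusted p = 0.0685), and the low-mRNA pair had 661 and 748 (log2 0.18, also under that shift). Srebf1 had 1104 and 945, and 338 and 360.3 in the low-mRNA pair.

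The highest day 5 difference was that of Sc5d, the lathosterol desaturase, with 576 in vehicle and 753 in treated cells (log2 0.39, limma adjusted p = 0.0603); its low-mRNA pair had 175 and 162. Scd2 had 7269 and 8582, a log2 difference of 0.24, and 2977 and 3396 in the low-mRNA pair. Fasn had 1423 and 1679, also 0.24, with 538 and 602 in the low-mRNA pair. Both low-mRNA differences, 0.19 for Scd2 and 0.16 for Fasn, were under the all-gene median of that pair. Insig1 (889.8 and 897) and Sqle (920.2 and 919) were nearly equal in the 2 arms.

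The branch medians lay on opposite sides of 0 at day 5, without a gene past the test. The sterol branch had a median log2 difference of -0.20, with 16 of 24 genes below 0, near the 63.4% of all genes below 0. The fatty acid branch had a median of 0.037, with 7 of 9 above 0 beside 36.0% of all genes, and the median over all genes was -0.09. The sterol median minus the fatty acid median was -0.23 there and -0.21 in the low-mRNA pair of day 5. It was 0.099 at day 1, 0.065 at day 3 and 0.19 in the low-mRNA pair of day 3. Between the 2 vehicle libraries of day 1, which had the same treatment, it was 0.13. Across days, no member had a treatment effect that differed by limma's F test, and 0.102% of all genes passed. The smallest member value was that of Scd2 (limma adjusted p = 0.164). Limma-voom called Scd2 alone among the members in that test, and 6.61% of all genes. Over 12 libraries with a term for low mRNA by day, the treatment comparisons called 0 members at each day. Of all genes, 0.0408%, 0.068% and 0.408% were called there (0.129% lower at day 5). At an unadjusted limma p under 0.05 they gave 0, 6 and 1 members, beside 689, 2113 and 1619 of the 14715 genes. The 95% intervals of the 33 genes were taken from the fit without the low-mRNA libraries. The lowest bound was -0.49 and the highest 0.67 at day 1, -0.72 and 0.69 at day 3, and -0.82 and 0.72 at day 5 (log2). At days 3 and 5 these bounds rest on 1 library per arm and on the spread of the day 1 pairs. Over 12 libraries with the low-mRNA term by day, Tm7sf2 alone had a day 3 difference above the highest bound. It stood at 0.84 (SE 0.33), where the median over all genes was 0.23. The bounds therefore describe that 1 fit and set no limit on differences in single genes.

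**Figure D2:**
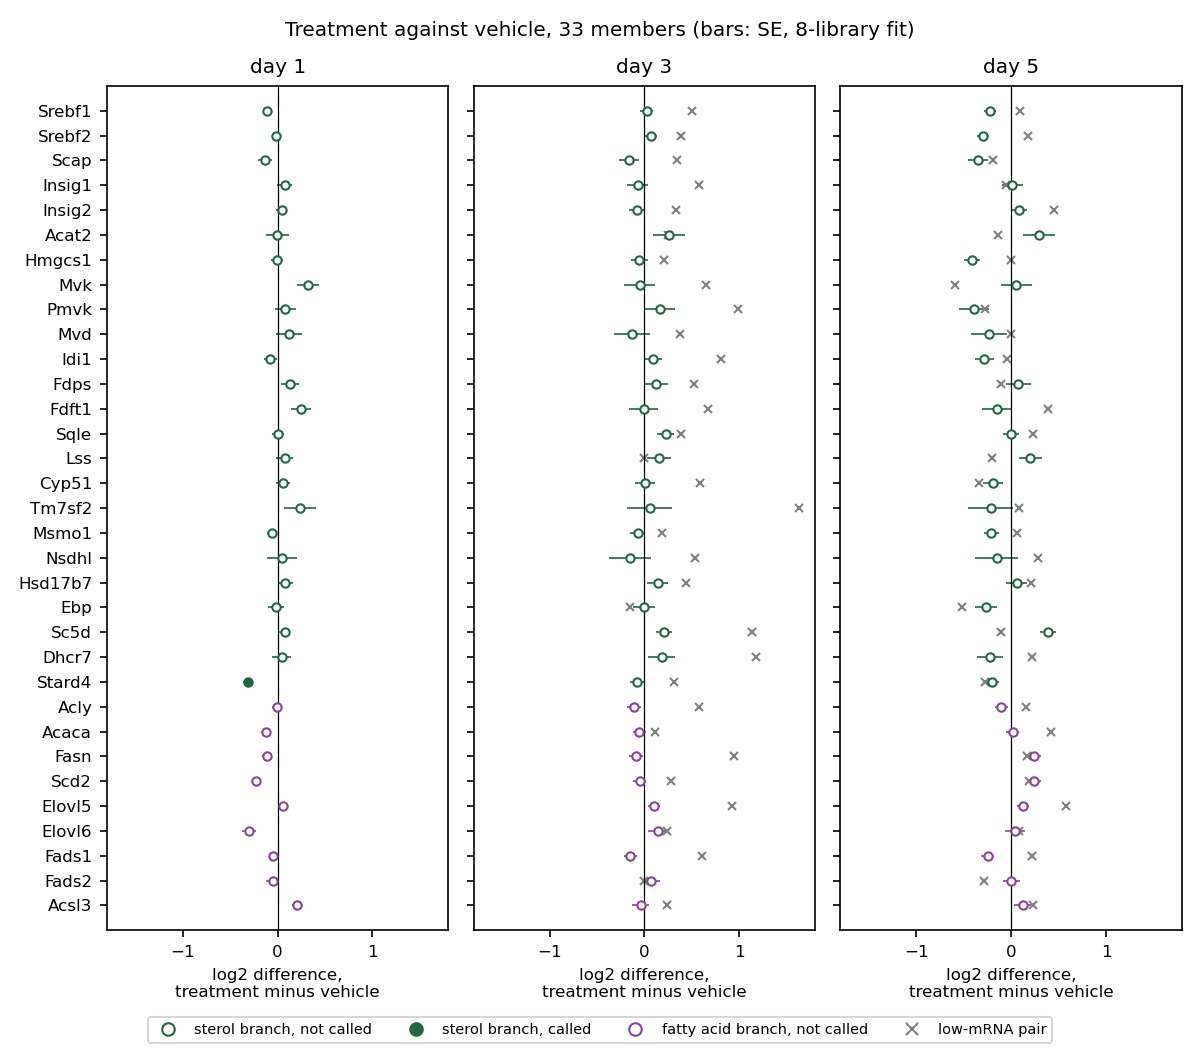
Log2 difference of treated against vehicle cells (x axis) for the 33 genes at days 1, 3 and 5, with bars for the SE of the 8-library fit, filled points for genes past the adjusted p threshold and grey crosses for the low-mRNA pair. Stard4 at day 1 (-0.31) is the 1 filled point, all 8-library differences lie within 0.5 of 0, and the crosses of day 3 lie to the right of 0 for 30 of 33 genes.

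Over days with RANKL, most genes of the module fell in vehicle cells, in the libraries without low mRNA. The day 5 to day 1 differences reached -1.34 on the log2 scale, where those of treatment had reached -0.41. By limma, 21 of 33 genes fell and none rose, with 29.4% of all genes called in either direction, 14.4% higher and 15.0% lower. Of the fallers 13 belonged to the 24 sterol genes and 8 to the 9 fatty acid genes. The medians were -0.46 and -0.47 on the log2 scale, and the median over all genes was close to 0. From day 3 to day 5 the 2 kinds of vehicle library went opposite ways. In those without low mRNA, 27 of 33 genes were lower (median -0.34), beside 53.8% of all genes (-0.05). In the low-mRNA ones, 31 of 33 were higher (median 0.65), beside 65.0% of all genes (0.34). In treated cells 27 of 33 were lower in the former (median -0.51), beside 59.9% of all genes (-0.14). In the latter 21 of 33 were higher (median 0.15), close to the 57.9% of all genes (0.14).

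The mevalonate enzymes carried 5 of the sterol calls. Acat2, which joins 2 acetyl-CoA units, had 904 and 719 at day 1 and 317 at day 5, a log2 change of -1.34 (SE 0.14, limma adjusted p = 0.00373). Fdps, the farnesyl diphosphate synthase, had 4025 and 3453 at day 1 and 1944 at day 5 (-0.94, SE 0.11). Hmgcs1 had 2921 and 2635 at day 1 and 1647 at day 5 (-0.75, SE 0.075). In all 3 the day 5 library lay under both day 1 libraries. Idi1 and Pmvk also fell, and the values of Mvk (-0.49) and Mvd (-0.54) did not pass.

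From squalene to cholesterol, 4 of 11 enzymes fell. Lss, the lanosterol synthase, had 1085 and 926 at day 1 and 511 at day 5 (log2 -0.97, SE 0.11). Sqle had 1820.0 and 1646 and then 920.2 (-0.91, SE 0.075, limma adjusted p = 0.002). Cyp51, the lanosterol demethylase, had 1669 and 1462 and then 904 (-0.79, SE 0.089). Msmo1, the methylsterol oxidase, fell by 0.72 as well. The other 7 did not pass: the log2 differences of Ebp (0.046), Sc5d (-0.059) and Dhcr7 (-0.085), which act late in the pathway, lay near 0, Fdft1 had 0.18, and Tm7sf2 (-0.21), Hsd17b7 (-0.34) and Nsdhl (-0.59) lay below 0.

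Of the regulators, Srebf2 fell from 2929 and 2903 to 2191 (log2 -0.41, SE 0.058, limma adjusted p = 0.00725), Srebf1 from 1338 and 1357 to 1104 (-0.29), and Insig1 from 1283 and 1115 to 889.8 (-0.43). These changes were smaller than those of the leading enzymes. Scap (0.18) and Insig2 (-0.13) did not pass, and Stard4 fell by 0.31.

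In the fatty acid branch, Scd2 had the largest fall, from 16158 and 15599 to 7269 (log2 -1.13, SE 0.062, limma adjusted p = 0.000986). Fads2, the delta-6 desaturase, went from 1751 and 1565 to 773 (-1.10, SE 0.081). Acly, which makes cytosolic acetyl-CoA from citrate, went from 3196 and 2996 to 2022 (-0.61), and Fads1 from 4977 and 4814 to 3372 (-0.54). The fall was smaller in Elovl6 (-0.47), Fasn (-0.30), Acsl3 (-0.29) and Acaca (-0.27), the last being the acetyl-CoA carboxylase that starts the branch. Elovl5, an elongase of polyunsaturated fatty acids, was the 1 gene of the branch that did not pass at day 5 (0.062).

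Over 12 libraries with a term for low mRNA by day, 8 of the 21 kept the call (Acat2, Hmgcs1, Fdps, Sqle, Lss, Msmo1, Scd2 and Fads2), where 2.93% of all genes were called (1.31% lower), and over 12 libraries without that term no gene of the 14715 was called. Leaving out 1 day 1 library left 9 members without vehicle replicate 1 (5.98% of all genes called), 11 without vehicle replicate 2 (4.86%) and 14 without treated replicate 1, likewise without replicate 2 (17.7% each).

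By day 3 in vehicle cells, 11 of 33 genes had fallen and none had risen by limma, with 19.7% of all genes called in either direction, 9.69% higher and 10.0% lower. They were 9 of the 24 sterol genes and 2 of the 9 fatty acid genes; the branch medians were -0.28 and -0.11, with 0.04 over all genes. Fads2 changed most, from 1751 and 1565 to 1069 (log2 -0.63, SE 0.081, limma adjusted p = 0.00779). Hsd17b7, a 3-ketosteroid reductase of the pathway, went from 740.0 and 649.9 to 452 (-0.62), and Acat2 from 904 and 719 to 536 (-0.59). Lss, Sc5d, Fdps, Sqle, Insig2, Idi1 and Msmo1 fell by 0.27 to 0.53, and Elovl5 had 1715 and 1659 at day 1 and 1309.6 at day 3 (-0.36).

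Acly, Acaca and Fasn, which lead from citrate to palmitate, gave no call at day 3, with log2 differences of -0.059, -0.16 and -0.031. Srebf1 (-0.21), Srebf2 (-0.076), Insig1 (-0.31), Hmgcs1 (-0.22) and Scd2 (-0.24) did not pass either. Leaving out 1 day 1 library gave 0 members without vehicle replicate 1, where no gene at all was called, 0 without vehicle replicate 2 (0.469% of all genes called), and 3 without treated replicate 1 (9.60%) or treated replicate 2 (9.70%). Over 12 libraries with the low-mRNA term by day it was 0, where 2.87% of all genes were called. At an unadjusted limma p under 0.05 that fit gave 13 members, beside 2129 of the 14715 genes. Without that term no gene was called, and limma-voom gave 20 members and 28.8% of all genes.

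**Figure D3:**
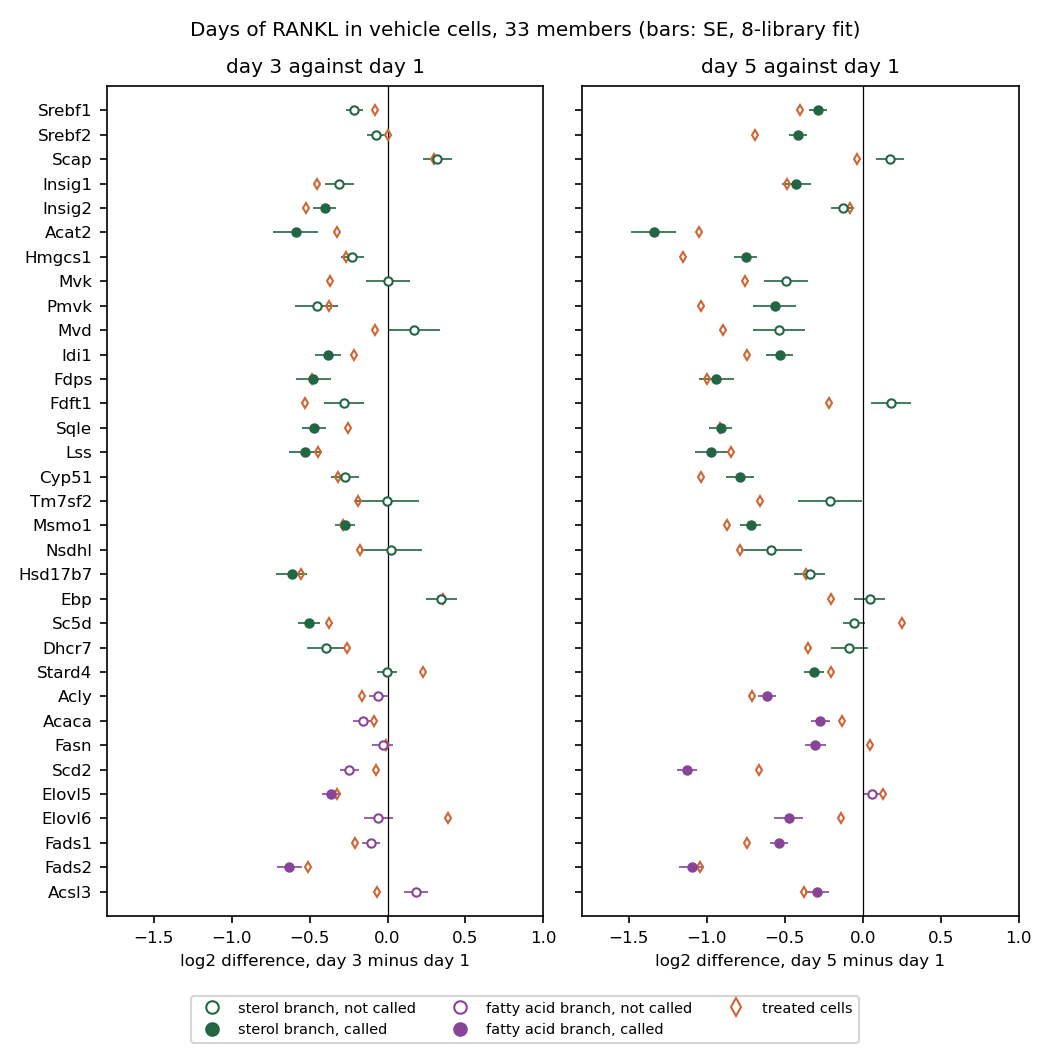
Log2 difference from day 1 (x axis) for the 33 genes in vehicle cells at days 3 and 5, with bars for the SE of the 8-library fit and filled points for genes past the adjusted p threshold; diamonds are treated cells, untested. At day 5 filled points run from -1.34 (Acat2) to -0.27 (Acaca), and the diamond of Fasn (0.047) lies on the other side of 0.

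Treated cells gave a time course from libraries of their own. At day 3, 11 of the 11 genes that fell in vehicle were also lower in treated cells than at day 1, and 20 of the 21 were at day 5; of all genes called lower in vehicle, 94.0% and 94.2% were lower in treated cells. Hmgcs1 had 2740.4 and 2773 at day 1 and 1239 at day 5 in treated cells, a log2 difference of -1.15 beside -0.75 in vehicle. Sqle had -0.92 beside -0.91, and Scd2 had -0.66 beside -1.13. Fasn was the exception, with 1683 and 1569 at day 1 and 1679 at day 5 (0.047). The day 5 medians in treated cells were -0.72 for the sterol branch, -0.38 for the fatty acid branch and -0.05 for all genes. Whether the change over days differs between the arms is the question of the F test across days above.

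The markers of differentiation moved over the same days. Of 8 osteoclast markers 7 were tested. In vehicle, 6 of them were higher and 1 lower at day 3 than at day 1 (median log2 difference 2.86). Of the 14715 genes, 8058 were higher at day 3 (median 0.037) and 7277 at day 5 (-0.003). At day 5, 4 of the osteoclast markers were higher and 3 lower (median 0.81). Their summed normalized count was 3833 and 3893 in vehicle at day 1, 17436 at day 3 and 3496 at day 5 in the libraries without low mRNA, and 4052 at day 3 and 15985 at day 5 in the low-mRNA libraries, and in treated cells 13752 and 3151 in the former and 6511 and 17611 in the latter. The sum was thus high at day 3 in the libraries without low mRNA and at day 5 in the low-mRNA ones. Calcr, the calcitonin receptor, was under the filter. Acp5, the tartrate-resistant acid phosphatase of osteoclasts, had 35.9 in vehicle at day 5 and 1231 in the low-mRNA library of that group. Of the 7 tested macrophage markers, 4 were higher and 3 lower in vehicle at day 3 (median log2 difference 0.036). At day 5 all 7 were higher (0.89). The part of these markers in the time course of the module was not tested.

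In the low-mRNA libraries the module was low. At day 3, all 33 genes were lower there than in the other library of the group in both arms. Of all genes, 82.5% were lower in vehicle and 78.4% in treated cells. The differences of the members in vehicle ran from -3.76 in Elovl5 to -0.61 in Mvd, the mevalonate diphosphate decarboxylase, on the log2 scale. The medians in vehicle were -2.30 for the sterol branch, -2.84 for the fatty acid branch and -1.71 for all genes. In treated cells they were -1.75, -2.29 and -1.20. At day 5, 30 of 33 in vehicle and 31 of 33 in treated cells were lower, beside 78.8% and 75.2% of all genes (medians -1.28 and -0.92), with Hsd17b7 lowest (-3.02 and -2.87) and Mvd on the other side of 0 (0.43 and 0.66). Elovl5 had 1309.6 in the day 3 vehicle library and 95.5 in its low-mRNA partner, and Mvd had 522 and 342. Members therefore differed widely in how far apart the 2 libraries of a group stood.

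The 2 vehicle libraries of day 1, on which every test rests, were not interchangeable for these genes. Replicate 1 was higher than replicate 2 in 31 of 33 members, among them 23 of 24 sterol genes and 18 of 18 enzymes from acetyl-CoA to cholesterol, while 50.8% of all genes were higher there. The median log2 difference was 0.18 for the sterol branch, 0.05 for the fatty acid branch and 0.00 for all genes. Nsdhl, a sterol 4-alpha-carboxylate dehydrogenase, differed most, with 674 and 488. In treated cells replicate 1 was higher in 24 of 33 members and in 55.4% of all genes. Acat2, with 904 and 719 in vehicle and 834 and 777 in treated cells, shows the size of that spread.

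**Figure D4:**
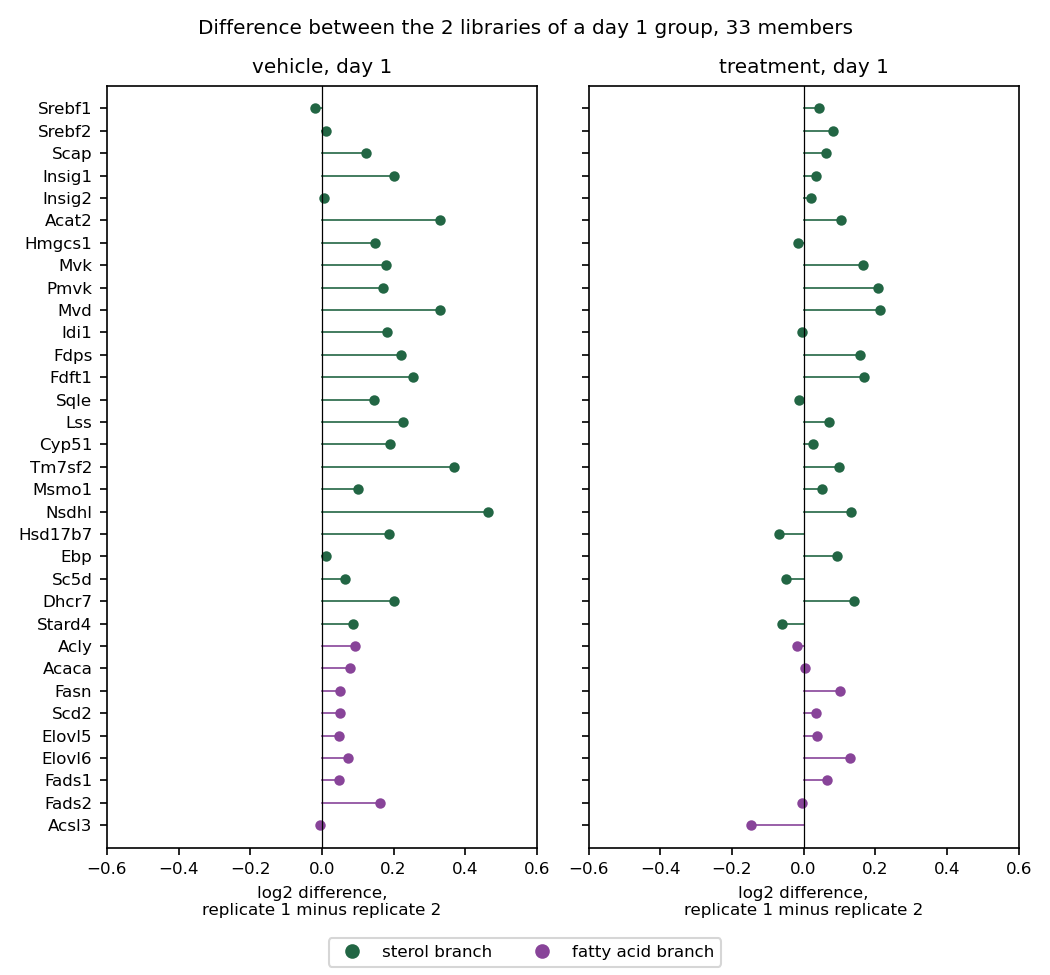
Log2 difference between replicate 1 and replicate 2 (x axis) of the vehicle and treatment groups at day 1 for the 33 genes, sterol branch in green and fatty acid branch in purple. In vehicle 31 points lie above 0, up to 0.46 for Nsdhl, and in treated cells 24 do.

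The neighbouring genes of the pathway were counted from a list of 28, of which 27 were tested. By limma 4 were higher and none lower at day 1 under treatment, beside 3.12% and 2.62% of all genes. They were Npc1 (0.31) and Npc2 (0.31), which export cholesterol from lysosomes, Soat1 (0.25), which esterifies it, and Acsl4 (0.45). None was called at day 3, and Me1 (0.69) and Acsl4 (0.52) rose at day 5, beside 2.54% of all genes. Over 12 libraries with the low-mRNA term by day, none of these treatment calls was kept. Over time in vehicle, 1 rose and 10 fell by day 3, beside 9.69% and 10.0% of all genes. By day 5, 4 rose and 12 fell, beside 14.4% and 15.0%. That 12-library fit called 1 and 4 genes of the list, and 2.87% and 2.93% of all genes. Me1, the malic enzyme that supplies NADPH, had 962 and 892 in vehicle at day 1 and 355 at day 5, a log2 change of -1.38.

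The sterol-efflux side of the balance was read from 9 LXR and oxysterol genes, of which 8 were tested. At day 1 treatment, Abca1, the cholesterol exporter, had 49.2 and 65.5 in vehicle and 110.0 and 103 in treated cells (log2 0.89, limma adjusted p = 0.0483). It was the 1 gene of the list called there, beside 3.12% of all genes higher and 2.62% lower. Under treatment at days 3 and 5, 6 and 7 of the 8 were below 0 (medians -0.033 and -0.18), beside 51.1% and 63.4% of all genes. Over time in vehicle, 7 of the 8 were higher and 1 lower at day 3, and likewise at day 5 (median log2 differences 0.51 and 0.49). Of the 14715 genes, 8058 and 7277 were higher (medians 0.037 and -0.003). Over 12 libraries with the low-mRNA term by day the list gave 0 calls for treatment at day 1, beside 0.0408% of all genes. It gave 1 each for days 3 and 5 in vehicle, beside 2.87% and 2.93%. Abca1 had 380.0 at day 5 (2.72), Abcg1, another exporter, changed by 1.34, and Nr1h3, which encodes LXR alpha, by 1.11. Ch25h, the cholesterol 25-hydroxylase, was under the filter on low counts.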

How the data were processed

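The authors deposited 1 table of log2 values for the 12 libraries. Per the submitters' processing notes TopHat2, SAMtools, DESeq2 and the mm9 build were used; the sources used here give no counting tool or strand setting. From the values, each deposited log2 entry is log2(normalized count + 8). Entries above 0 were checked up to a cutoff in reads, and all of those came out as whole reads within 0.02 reads. The entries with the highest counts were not in that check. Of 24757 rows, 993 repeats were dropped. Names came from the Ensembl and symbol columns; the Entrez column is out of step with the values and was not used.

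Values were analysed as log2(normalized count + 1) in limma 3.58.1 (R 4.3.3, trended prior), for the 14715 genes with a mean of at least 10 in 1 group, with 1 mean per group, 2 residual degrees of freedom and Benjamini-Hochberg adjustment over all genes at 0.05. The fit left out the 4 libraries with under 60% nuclear protein-coding reads. A fold change of a gene with low counts is understated on this scale.

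Members and lists were chosen with earlier results of these data known. Named were, per comparison, up to 6 sterol and 4 fatty acid members with the largest called difference, 7 members in every comparison, and up to 4 genes of each other list; the members beyond these were named to give whole roles after their values were seen, and some genes of the rule are not reported here. Exon lengths and overlaps came from GENCODE M21. The fits were tested on simulated data. Alternatives covered the replicate block, all 12 libraries, the filter, the pseudocount, quantile normalization, limma-voom and leaving out 1 library.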

Additional observations from a re-analysis of the deposited data

How the results depend on the processing

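Lone libraries at days 3 and 5 and day 1 pairs that set the spread limit these calls. The 23 called gene values were recomputed under each setting, which gave 392 values: 256 stayed called, 136 lost the call, some of them in settings that called no gene of any kind, and 0 turned.

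Member counts are given with the share of all genes called in parentheses. For treatment at day 1 the count of 1 became 4 with limma-voom (13.6%), and 0 over 12 libraries (no gene called), with the low-mRNA term by day (0.0408%), with that term scaled to nuclear protein-coding reads (0.285%; chosen after seeing the data), without the filter (1.07%) and under quantile normalization (4.45%); leaving out 1 library gave 0 to 1. At day 5 the count of 0 became 5 with limma-voom (13.3%). For vehicle day 3, the 11 became 0 over 12 libraries (no gene called), 0 with the term (2.87%), 1 scaled (6.29%), 3 without the filter (7.62%) and 20 with limma-voom (28.8%), with 0 to 11 on leaving out 1 library. For vehicle day 5, the 21 became 0 over 12 libraries (no gene called), 8 with the term (2.93%), 13 scaled (9.37%) and 9 without the filter (10.2%), with 9 to 21 on leaving out 1 library. The effect that differs between days went from 0 to 1 with limma-voom (6.61%).

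Whether replicate numbers pair the libraries could not be told. The correlation of replicate differences between groups was 0.0483 to 0.0913 where a day 1 group took part. Among days 3 and 5, where every replicate 2 is a low-mRNA library, it was 0.782 to 0.899. With the replicate block, the counts became 4 at day 1 (11.9%), 5 at day 5 (12.6%), 19 for vehicle day 3 (23.8%) and 25 for vehicle day 5 (32.2%) over 8 libraries, and 0 for day 1, vehicle day 3 and vehicle day 5 over 12, where no gene was called.

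Directions turned only in values that had not passed (log2), and the cause was not tested. At day 1 these were Srebf2 at 0.020 and Hmgcs1 at 0.035 under quantile normalization. On leaving out 1 day 1 library, the day 1 values ran from -0.055 to 0.026 for Srebf2, -0.028 to 0.17 for Insig1, -0.084 to 0.065 for Hmgcs1 and -0.067 (with -0.00165 between) to 0.077 for Sqle. At day 3 over 12 libraries, in the fits with and without the term or the replicate block, Insig1 stood at 0.25, Hmgcs1 at 0.076, Fasn at 0.43 and Scd2 at 0.12, and scaled Insig1 at 0.11 and Fasn at 0.28. At day 5 over 12 libraries, in the same fits, Insig1 stood at -0.020 and Sqle at 0.12, scaled Insig1 at -0.15, and under quantile normalization Sqle at 0.049.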
